A study of Mus musculus with 6 samples.

Results

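The leukocyte integrin subunits described here are Itgam, Itgal, Itgb2, Itgb2l, Itga4, Itgb1, Itgb7, Itga5, Itgav and Itgb5. They were chosen by symbol, and the 10 symbols match 11 of the 19162 gene rows of the deposited table because the symbol Itgam stands on 2 rows. RNA was sequenced from bone marrow cells of C57BL/6J mice after 4 days in culture with 40 ng/mL GM-CSF, a growth factor of granulocytes and macrophages. The KCl group also received 34.7 mM of potassium chloride, and the control group received GM-CSF without it. Each group had 3 libraries, numbered 1, 2 and 4, and the series treats the cells as myeloid-derived suppressor cells, which are immature myeloid cells that restrain T cells. Nothing in the labels tells whether each library stands for another mouse or another culture, and the p-values reflect only how far these libraries vary, which may be technical. KCl also raises osmolality, and no culture with another solute was analysed here. In bulk RNA, fewer cells of a type and less RNA per cell cannot be told apart.

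Integrins are adhesion receptors made of 1 alpha and 1 beta chain, and they switch between a closed and an open shape when talin and kindlin bind the tail of the beta chain. On myeloid cells the chain encoded by Itgb2 (CD18) pairs with the alpha chains of Itgam (CD11b), Itgal (CD11a) and Itgax (CD11c), and these receptors bind ICAM proteins and complement fragment iC3b. The chain of Itga4 pairs with those of Itgb1 or Itgb7 and binds VCAM-1, the chain of Itga5 pairs with that of Itgb1 and binds fibronectin, and the chain of Itgav pairs with that of Itgb5, among others, and binds vitronectin.

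Library totals ran from 14118724 to 21694831 counts, and all 11 rows passed the filter on low counts, with 284 to 28265 counts per library. The libraries KCl 4 and control 4 stood apart from the others. Over 8231 genes, their mean CPM (counts scaled to library size) nearly equalled the mean of the other 4 libraries: the log2 ratio of these means had an SD of 0.0095, against 0.041 from counting noise alone and 0.123 to 0.262 for the 14 other pairs of libraries. The same ratio was -0.012 to 0.027 for the integrin rows. The deposited libraries are therefore not independent, p-values over all 6 may be too small, and the fold change of each member is given with and without this pair. The labels and processing notes name no step with this effect.

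The 2 rows with the symbol Itgam are shown first by sequence, because what 1 of them counts changes how the other is read. The row ENSMUSG00000030786 is Itgam itself, at chr7:128062640-128118491 on the plus strand (mm10, GENCODE M21). The row ENSMUSG00000108596 is called Gm49368 in GENCODE M21, lies at chr7:128062683-128128160 on the same strand, and reads through Itgam into a last exon of its own. Each transcript has 30 exons, and 29 of them end at the same base. Of the exon bases of Gm49368, 71.8% (3450 bases) are also exon bases of Itgam, so reads from them cannot be told apart. Below, lower case marks the last 20 bases of the shared exon (chr7:128116827-128116846) and capitals mark the first 40 bases of the last exon of each, which starts at 128117306 for Itgam and at 128126808 for Gm49368.
Itgam: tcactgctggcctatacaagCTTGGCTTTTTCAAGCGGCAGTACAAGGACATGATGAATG
Gm49368: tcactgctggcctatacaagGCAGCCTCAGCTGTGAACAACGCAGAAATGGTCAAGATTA
The 2 sequences part at the first capital letter, and reads over that junction or in the last exons are among those that separate the rows, which also differ in some earlier exon bases. Another annotated gene, Gm45700 (128126835-128127181), lies within the last exon of Gm49368. It has no row of its own, so some reads in that exon may come from it. Itgam is described from its own row below, and Gm49368 is given beside it.

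Promoter sequence from RefSeq (GRCm38.p6) was found for 8 of the 10 members, and Itgal and Itgb2 had no entry. The 250 bases before the start are printed for Itgb5 and Itgb2l, which rose with KCl, and for Itgam, which did not pass the test. Capitals mark the letters GAGGAA (the core bound by factors of the PU.1 type) or TGGAAA (the core bound by NFAT), searched on both strands, where they read TTCCTC and TTTCCA. Both motifs hold the letters GGAA. The windows are chr16:33829415-33829664 on the plus strand for Itgb5, chr16:96443615-96443864 on the minus strand for Itgb2l and chr7:128062390-128062639 on the plus strand for Itgam.
Itgb5: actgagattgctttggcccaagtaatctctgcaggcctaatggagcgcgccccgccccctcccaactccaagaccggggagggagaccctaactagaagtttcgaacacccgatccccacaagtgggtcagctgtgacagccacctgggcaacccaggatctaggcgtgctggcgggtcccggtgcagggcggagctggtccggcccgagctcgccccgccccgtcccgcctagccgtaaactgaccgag
Itgb2l: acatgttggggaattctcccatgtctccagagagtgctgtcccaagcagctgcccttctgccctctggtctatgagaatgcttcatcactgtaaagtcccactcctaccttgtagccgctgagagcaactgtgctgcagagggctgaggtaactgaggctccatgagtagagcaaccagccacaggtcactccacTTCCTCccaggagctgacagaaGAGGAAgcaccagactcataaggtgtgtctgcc
Itgam: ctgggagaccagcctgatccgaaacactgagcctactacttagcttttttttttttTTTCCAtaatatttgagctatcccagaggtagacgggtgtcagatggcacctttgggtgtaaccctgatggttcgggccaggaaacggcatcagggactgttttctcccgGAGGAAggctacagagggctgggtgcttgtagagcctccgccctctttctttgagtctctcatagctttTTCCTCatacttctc
The Itgb2l window held 2 matches to GAGGAA and none to TGGAAA. The Itgam window held 2 and 1, and the Itgb5 window held neither. GAGGAA was found in 5 of the 8 member promoters, against 23.3% of 32851 promoter windows of the same length, and TGGAAA in 3 of 8, against 18.6%. A match is a description of letters and not a bound site.

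Per length of gene model (deposited FPKM, fragments per kilobase and sequencing depth), Itgb2 had the highest level of the members in both groups and Itgav the lowest. Itgb2 averaged 268 ± 19.6 FPKM in KCl and 265 ± 29.5 FPKM in control (SD, n = 3 each), and Itgav averaged 2.02 ± 0.73 FPKM in KCl and 1.63 ± 0.71 FPKM in control. In KCl, Itgb2 was followed by Itgam (154 FPKM), Itgb1 (91.3), Gm49368 (75.7), Itgb2l (38.95), Itgal (30.7), Itga5 (26.1), Itgb7 (22.04), Itgb5 (13.6) and Itga4 (7.47). The ranges of neighbours in this order overlapped only for Itga5 and Itgb7. In control, the first 5 places were the same and Itgal (20.6 FPKM) stood below Itga5 (26.3) and Itgb7 (24.2). There the ranges overlapped for Itga5 and Itgb7, for Itgb7 and Itgal, and for Itgb5 (9.62) and Itga4 (8.40). In deposited FPKM, Itgal thus lay above the range of Itga5 in all 3 KCl libraries and below it in all 3 control libraries. The order between genes depends on the lengths used. The deposited FPKM imply 9427 bases for Itgal and 4379 for Itga5, against 6569 and 4933 exon bases in GENCODE M21. In control 1, 2 and 4, Itgal had 172, 208 and 199 CPM and Itga5 had 102, 121 and 121 CPM. Per exon base, these values place Itgal above Itga5 in all 3 control libraries. The change of order between the groups therefore rests on the deposited lengths.

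**Figure D1:**
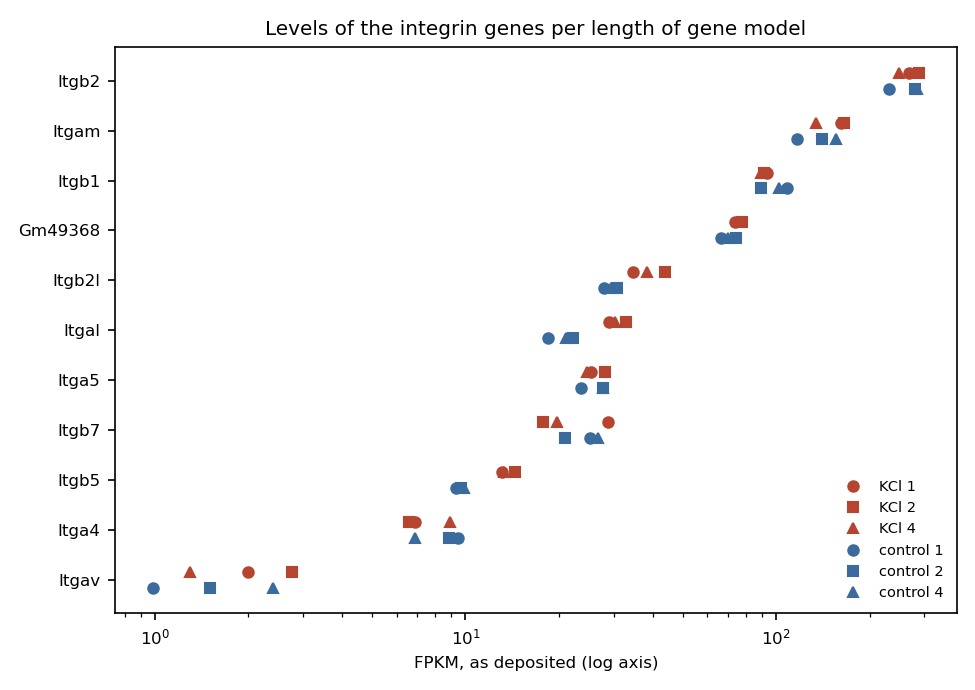
Deposited FPKM (log axis) of the 11 integrin rows, ordered by their mean in KCl, with 1 point per library (KCl red, control blue). Itgal lies at 28.9 to 32.9 FPKM in KCl and at 18.5 to 22.2 FPKM in control, and Itgav lies lowest in every library.

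With KCl, 3 of the 11 rows rose and none fell: Itgal, Itgb5 and Itgb2l. Over all 13326 genes tested, 22.9% passed the same threshold (edgeR quasi-likelihood test, Benjamini-Hochberg adjusted p under 0.05), 12.4% higher and 10.5% lower, so that 27.3% of the rows is close to the background. The same 3 rows had no overlap between groups, against 38.5% of all genes tested. The median log2 fold change was 0.13 over the 11 rows and 0.00 over all genes. Without KCl 4 and control 4, edgeR called none of the 11 rows and 0.458% of 13525 genes. In that fit 6 rows had an unadjusted p under 0.05 (5 higher, 1 lower), against 29.8% of all genes.

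**Figure D2:**
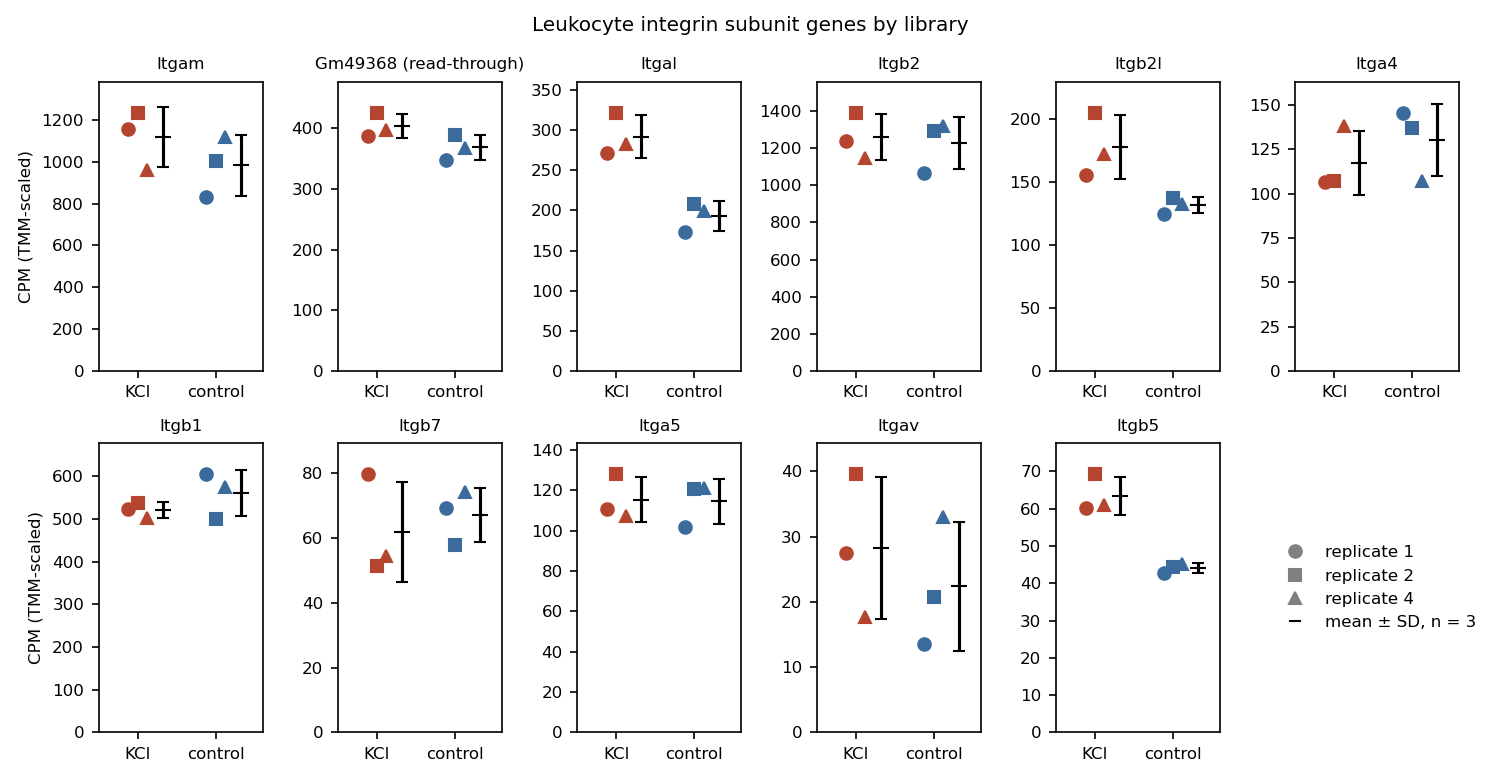
TMM-scaled CPM of each integrin row by library, from 0, with KCl left of control and the mean ± SD (n = 3) beside the points. The groups do not overlap for Itgal, Itgb2l and Itgb5, and Itgav spans 17.8 to 39.6 CPM in KCl and 13.5 to 33.0 CPM in control.

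Among the alpha chains that pair with Itgb2, Itgal rose. Itgal, the alpha chain of LFA-1, which binds ICAM-1 on other cells, lies at chr7:127296260-127335138 on the plus strand. It had 271, 322 and 282 CPM in KCl 1, 2 and 4, against 172, 208 and 199 CPM in control 1, 2 and 4. All KCl libraries lay above all control libraries, and replicate 1 was the lowest of both groups. The log2 fold change was 0.60 ± 0.10 (SE, n = 3 per group, adjusted p = 0.00935), an increase of 51.1%. Without replicate 4 it was 0.64 ± 0.14, with an adjusted p of 0.0847, the only alternative in which the call was lost.

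Itgam, the alpha chain of Mac-1 that is used as a surface mark of myeloid cells, had 1157, 1236 and 959 CPM in KCl 1, 2 and 4, against 830, 1004 and 1118 CPM in control 1, 2 and 4. KCl 4 was the lowest KCl library and control 4 the highest control library, and the groups overlapped. The log2 fold change was 0.18 ± 0.14 (adjusted p = 0.464). It was 0.38 ± 0.13 without replicate 4 (adjusted p = 0.136) and -0.22 between KCl 4 and control 4 alone. The read-through row Gm49368 had 387, 426 and 398 CPM in KCl, against 348, 389 and 368 CPM in control, with a log2 fold change of 0.13 ± 0.06 (adjusted p = 0.213), and of 0.14 ± 0.10 without replicate 4. With both rows summed, the log2 fold change was 0.17 ± 0.11 (adjusted p = 0.394).

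Itgax, the alpha chain that marks dendritic cells, is no member but shares the partner of Itgam and Itgal and starts 1386 bases after the end of Gm49368. It had 281, 269 and 285 CPM in KCl, against 436, 475 and 448 CPM in control. The groups lay far apart relative to their spread, with a log2 fold change of -0.70 ± 0.05 (adjusted p = 0.00234), and of -0.73 without replicate 4, where the adjusted p was 0.0538.

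The level of Itgb2 set against these alpha chains gives their balance within a library. The summed FPKM of Itgam, Itgal, Itgax and Itgad was 244, 247 and 218 in KCl 1, 2 and 4, against 218, 253 and 262 in control 1, 2 and 4. Itgb2 had 267, 288 and 248 FPKM in KCl, against 231, 280 and 284 FPKM in control. Both sums overlapped between groups, and both were highest in KCl 2 within KCl and in control 4 within control.

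Within that sum the shares differed between groups, a measure chosen after the values were seen. Itgal made up 11.9%, 13.3% and 13.8% in KCl, against 8.48%, 8.80% and 8.08% in control. Itgam made up 66.2%, 66.9% and 61.4% in KCl, against 53.4%, 55.5% and 59.5% in control. Itgax made up 21.9%, 19.8% and 24.8% in KCl, against 38.1%, 35.7% and 32.4% in control. No share overlapped between groups, and the exact 2-sided permutation p was 0.1 for each, the smallest that 3 libraries against 3 can give. The differences were 4.55 percentage points for Itgal, 8.72 for Itgam and -13.3 for Itgax. Shares of a library add up to the whole, so a lower Itgax share raises the others, and these differences are not separate results. The level of Itgam itself overlapped between groups, as given above. With Gm49368 added to Itgam, the Itgal share averaged 9.84% in KCl and 6.56% in control.

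**Figure D3:**
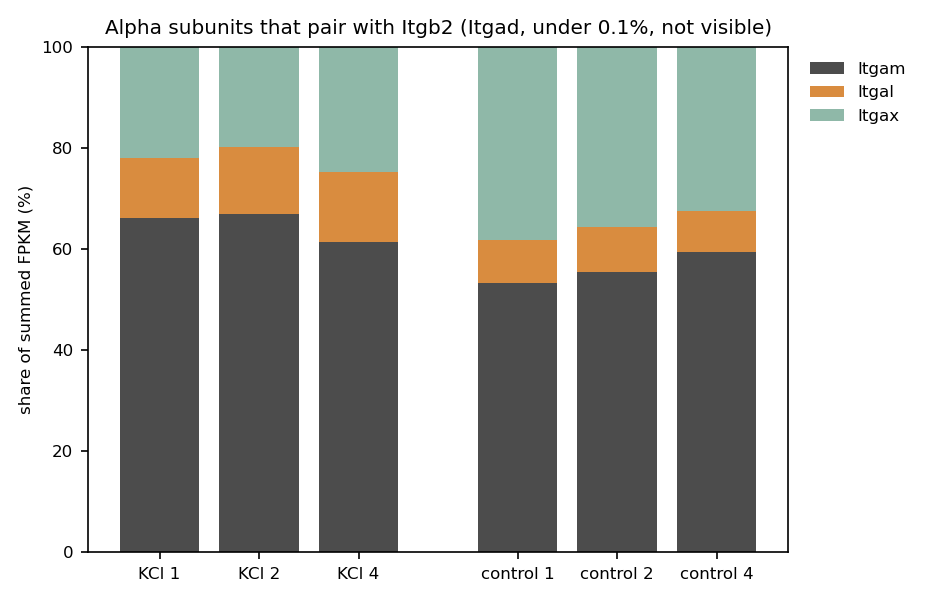
Share (%) of the summed FPKM of the alpha subunit genes that pair with Itgb2, by library, with KCl left of control. Itgax takes 19.8% to 24.8% in KCl and 32.4% to 38.1% in control, while Itgal takes 11.9% to 13.8% in KCl and 8.08% to 8.80% in control.

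The log2 ratio of Itgam to Itgal FPKM does not depend on library scaling. It was 2.48, 2.33 and 2.15 in KCl 1, 2 and 4, against 2.65, 2.66 and 2.88 in control 1, 2 and 4. Every KCl library lay below every control library, with a difference of -0.41 in the mean (exact permutation p = 0.1, the smallest possible) and of -0.25 without replicate 4.

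Of the beta chains of this family, Itgb2l rose and Itgb2 did not pass the test. Itgb2, at chr10:77530252-77565708 on the plus strand, had 1238, 1392 and 1149 CPM in KCl 1, 2 and 4, against 1064, 1294 and 1318 CPM in control 1, 2 and 4. The groups overlapped, with a log2 fold change of 0.04 ± 0.11 (adjusted p = 0.834) that was -0.01 under upper-quartile scaling and 0.16 ± 0.14 without replicate 4. Itgb2l encodes Pactolus, a relative of the Itgb2 chain known from cells of the mouse neutrophil lineage, and lies at chr16:96422288-96443619 on the minus strand. It had 156, 205 and 173 CPM in KCl, against 125, 138 and 132 CPM in control. The lowest KCl library lay above the highest control library, and KCl 2 was the highest of all.

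The log2 fold change of Itgb2l was 0.43 ± 0.11 (adjusted p = 0.0331), an increase of 35.1%. This call was lost with a batch term for replicate 4 and when KCl 4, control 1, control 2, control 4 or both libraries of replicate 4 were left out, with adjusted p up to 0.137. Without replicate 4 the log2 fold change was 0.46 ± 0.15. The log2 ratio of Itgb2l to Itgb2 FPKM was -2.95, -2.72 and -2.69 in KCl 1, 2 and 4, against -3.05, -3.19 and -3.27 in control 1, 2 and 4. The groups did not overlap, and the difference was 0.38 (exact permutation p = 0.1, the smallest possible) and 0.29 without replicate 4.

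Marker genes of several blood cell types differed between the groups beside these results. Their counts stand against the 12.4% of all genes tested that were higher and the 10.5% that were lower. Of 16 neutrophil markers tested, 5 were higher and none lower in KCl (31.2% called), and their summed level was 21570 to 29220 CPM in KCl and 17470 to 19640 CPM in control. Of 11 monocyte markers 5 were higher and none lower (45.5% called), with sums of 2207 to 2479 CPM in KCl and 1508 to 1778 CPM in control. Of 11 macrophage markers 4 were higher and 1 lower (45.5% called), with sums of 681.5 to 785.2 CPM in KCl and 542.9 to 681.7 CPM in control. The neutrophil and monocyte sums did not overlap between groups, and the macrophage sums did.

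Of 13 dendritic cell markers tested, none was higher and 5 were lower (38.5% called), with sums of 4892 to 6263 CPM in KCl and 6307 to 9577 CPM in control. Of 8 eosinophil markers none was higher and 5 were lower (62.5% called), with sums of 962 to 1118 CPM in KCl and 2353 to 2584 CPM in control. Of 7 basophil and mast cell markers 1 was higher and 1 lower (28.6% called). Of 6 lymphocyte markers 1 was higher (16.7% called), of 10 stromal and endothelial markers 1 was higher, and none of 5 megakaryocyte and erythroid markers passed, shares under the 22.9% over all genes. No listed marker with a row in the table was at 0 in all 6 libraries, and the macrophage marker Vsig4 and the lymphocyte marker Ncr1 had no row. The part of these cell types in the integrin results was not tested.

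Of the chains that bind VCAM-1 and fibronectin, none passed the test. Itga4, at chr2:79255426-79333123 on the plus strand, had 107, 107 and 138 CPM in KCl 1, 2 and 4, against 146, 137 and 107 CPM in control 1, 2 and 4. In replicates 1 and 2 the KCl libraries were the lower ones, and in replicate 4 the order was the opposite. The log2 fold change was -0.15 ± 0.15 over all 6 libraries (adjusted p = 0.594), -0.41 ± 0.07 without replicate 4 (adjusted p = 0.0747) and 0.37 between KCl 4 and control 4 alone.

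Itgb1, the most widely shared beta chain, lies at chr8:128685654-128733200 on the plus strand. It had 524, 538 and 501 CPM in KCl, against 605, 501 and 575 CPM in control, with a log2 fold change of -0.10 ± 0.08 (adjusted p = 0.474), and of -0.06 ± 0.12 without replicate 4. Itgb7, whose chain takes leukocytes to the gut when paired with that of Itga4, lies at chr15:102215995-102231944 on the minus strand and had 79.7, 51.4 and 54.4 CPM in KCl, against 69.4, 57.9 and 74.1 CPM in control. KCl 1 was the highest Itgb7 library and KCl 2 the lowest, so the control values lay inside the KCl range. Its log2 fold change was -0.12 ± 0.19 (adjusted p = 0.72), and 0.04 without replicate 4. The log2 ratio of Itgb7 to Itgb1 FPKM was -1.70, -2.37 and -2.18 in KCl 1, 2 and 4, against -2.11, -2.09 and -1.94 in control 1, 2 and 4, which overlapped (difference -0.04, exact permutation p = 0.8, and 0.07 without replicate 4).

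Itga5, the alpha chain of the main fibronectin receptor, lies at chr15:103344286-103366763 on the minus strand. It had 111, 128 and 107 CPM in KCl 1, 2 and 4, against 102, 121 and 121 CPM in control 1, 2 and 4. The groups covered nearly the same range, and the log2 fold change was 0.01 ± 0.10 (adjusted p = 0.951), with a sign that changed under 5 alternatives and a value of 0.10 ± 0.12 without replicate 4.

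Of the chains that bind vitronectin, Itgb5 rose and Itgav did not pass the test. Itgb5 lies at chr16:33829665-33949338 on the plus strand and had 60.2, 69.3 and 60.9 CPM in KCl 1, 2 and 4, against 42.6, 44.2 and 45.3 CPM in control 1, 2 and 4. The control libraries lay close together and all below the lowest KCl library. The log2 fold change was 0.53 ± 0.07 (adjusted p = 0.00592), an increase of 44.1%, and without replicate 4 it was 0.57 ± 0.10 with an adjusted p of 0.0742, again the only alternative in which the call was lost.

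Itgav, its partner chain, lies at chr2:83724397-83806916 on the plus strand. It had 27.4, 39.6 and 17.8 CPM in KCl 1, 2 and 4, against 13.5, 20.7 and 33.0 CPM in control 1, 2 and 4. In replicates 1 and 2 the KCl libraries were the higher ones, in replicate 4 the control library was, and the coefficient of variation was 38.7% in KCl and 44.0% in control, the largest among the 11 rows. The log2 fold change was 0.35 ± 0.40 (adjusted p = 0.632), 0.97 ± 0.28 without replicate 4 (adjusted p = 0.113) and -0.90 between KCl 4 and control 4 alone. The log2 ratio of Itgav to Itga5 FPKM was -3.67, -3.35 and -4.25 in KCl, against -4.57, -4.20 and -3.53 in control, with a difference of 0.34 (exact permutation p = 0.5). Without replicate 4 the difference was 0.87, and the 2 KCl values lay above the 2 control values.

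In 6 of the 11 rows the difference between KCl 4 and control 4 had the opposite sign to the fit without them. The share of all genes with such a reversal was not computed, so this count is not a trait of the integrin rows. For Itgal, Itgb5 and Itgb2l the groups did not overlap, so every pairing of a KCl with a control library gives the same sign. The log2 difference between KCl 4 and control 4 was 0.51 for Itgal, 0.43 for Itgb5 and 0.38 for Itgb2l.

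**Figure D4:**
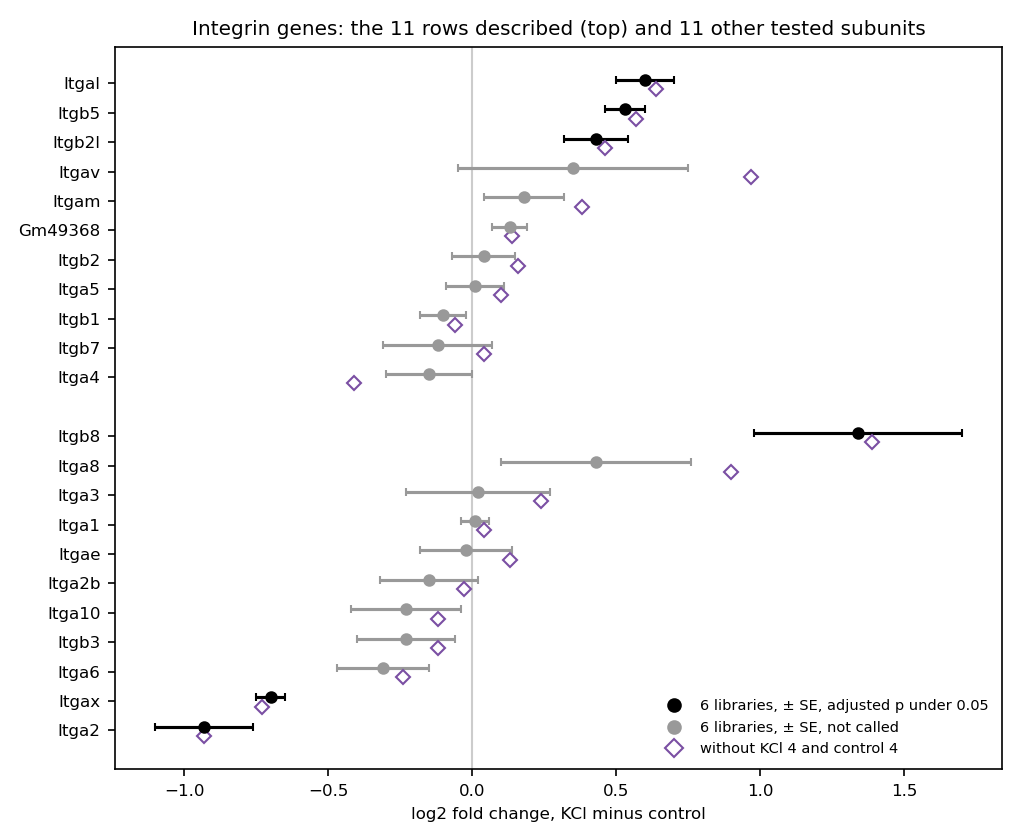
Log2 fold change (KCl minus control) of the 11 integrin rows and 11 other tested subunit genes, with SE, and the value without KCl 4 and control 4 as open diamonds. The diamonds lie close to the full fit for Itgal, Itgb5 and Itgb2l and far from it for Itgav (0.97 against 0.35) and Itga4 (-0.41 against -0.15).

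**Figure D5:**
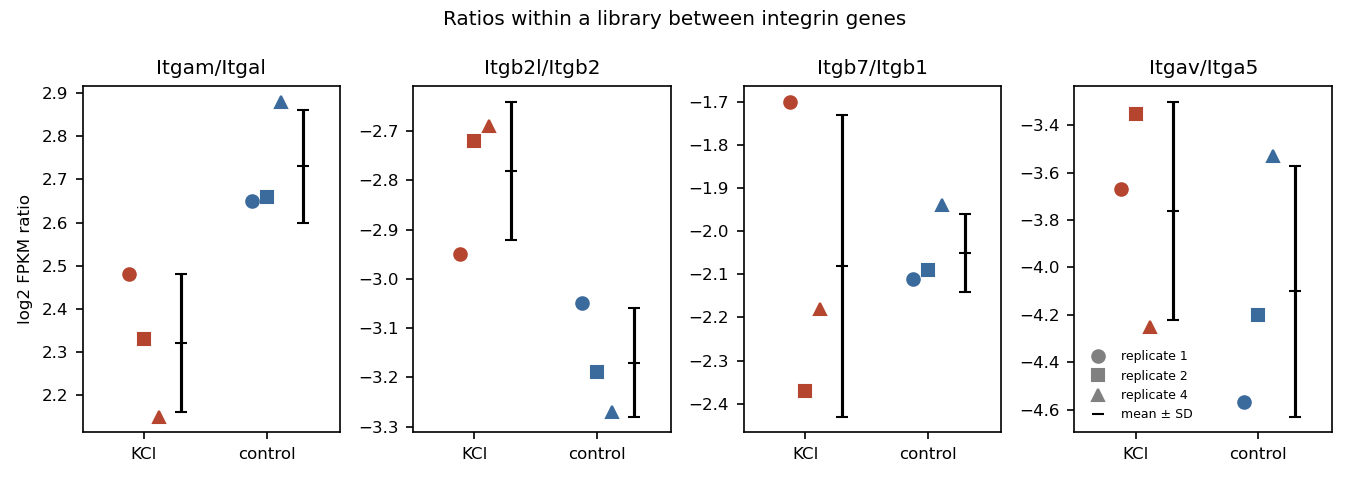
Log2 ratios of FPKM between pairs of integrin genes within each library, with KCl left of control and the mean ± SD (n = 3 each). The groups do not overlap for Itgam/Itgal and Itgb2l/Itgb2 and overlap for Itgb7/Itgb1 and Itgav/Itga5.

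Of 17 other integrin subunit genes, 11 were tested, of which 1 rose, 2 fell and 8 did not pass (27.3% called), with a median log2 fold change of -0.15. Itgax fell, as given above. Itga2, an alpha chain of the collagen receptors, fell with 34, 21 and 27 counts in KCl 1, 2 and 4, against 64, 59 and 41 counts in control 1, 2 and 4 (log2 fold change -0.93 ± 0.17, adjusted p = 0.0133). Itgb8, a partner of the Itgav chain that binds latent TGF-beta, rose with 16, 22 and 18 counts in KCl, against 12, 5 and 6 counts in control (log2 fold change 1.34 ± 0.36, adjusted p = 0.0432). The Itgb8 call rested on few counts and was lost under 10 of 15 alternatives, and that of Itga2 under 4 of 15. Itgb3, the other well-known partner of the Itgav chain, had a log2 fold change of -0.23 ± 0.17, and Itga6, a laminin receptor chain, one of -0.31 ± 0.16. Itgad, Itga7, Itga9, Itga11, Itgb4 and Itgb6 were too low to test.

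Of 20 tested genes that open or close integrins from inside the cell, 1 rose, 2 fell and 17 did not pass (median log2 fold change 0.01, 15% called). Sipa1, which inactivates the GTPase Rap1, averaged 249 ± 7.28 CPM in KCl and 181 ± 9.60 CPM in control (log2 fold change 0.46 ± 0.06, adjusted p = 0.00484). Skap1, an adaptor known from T cell integrin activation, averaged 0.41 ± 0.11 CPM in KCl and 1.25 ± 0.15 CPM in control (log2 fold change -1.61 ± 0.25, adjusted p = 0.00773). Cytip, which binds the cytohesin activators of the Itgb2 chain, had a log2 fold change of -0.55 ± 0.15 (adjusted p = 0.0415). That call was lost under 8 of 16 alternatives. Itgb1bp1, which competes with talin for the Itgb1 tail, had a log2 fold change of 0.29 ± 0.15 (adjusted p = 0.241). Talin 1 (Tln1) and kindlin-3 (Fermt3), named here after their values were seen, each had a log2 fold change of 0.01.

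Of 13 tested ligand genes, 2 rose, 3 fell and 8 did not pass (median -0.05, 38.5% called). Spp1, which encodes osteopontin, a ligand of Itgav and Itga4 receptors, averaged 224 ± 16.1 CPM in KCl and 615 ± 104 CPM in control (log2 fold change -1.46 ± 0.13, adjusted p = 0.00299). C3, the source of the Itgam ligand iC3b, averaged 2465 ± 181 CPM in KCl and 1610 ± 191 CPM in control (log2 fold change 0.61 ± 0.11, adjusted p = 0.0108). F11r, a junction protein bound by LFA-1, had a log2 fold change of 0.48 ± 0.06 (adjusted p = 0.00581). Vcam1, the ligand of Itga4 receptors, had one of -0.35 ± 0.08 (adjusted p = 0.0313), a call lost under 8 of 16 alternatives. The third gene that fell, Mfge8, a bridging ligand of the Itgav chain named after its values were seen, had one of -0.49 ± 0.13 (adjusted p = 0.0422), also lost under 8 of 16.

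Of 26 tested genes of signalling below integrins, 5 rose, none fell and 21 did not pass (median 0.09, 19.2% called). Vav3, a guanine nucleotide exchange factor, had a log2 fold change of 0.36 ± 0.07 (adjusted p = 0.0125), and Pxn, the adhesion scaffold paxillin, one of 0.37 ± 0.07 (adjusted p = 0.0176). Syk, the kinase recruited below Itgb2 receptors, averaged 625 ± 22.5 CPM in KCl and 520.0 ± 26.6 CPM in control (log2 fold change 0.26 ± 0.06, adjusted p = 0.0236). Was, which starts actin branching, had a log2 fold change of 0.17 ± 0.04 (adjusted p = 0.0289). The remaining gene, Src, a kinase named after its values were seen, had one of 0.53 ± 0.13 (adjusted p = 0.0323). These calls were lost under 3 (Vav3), 6 (Pxn), 7 (Src), 8 (Syk) and 13 (Was) of 16 alternatives.

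Of 14 genes of surface partners and recycling, all tested, 4 rose, none fell and 10 did not pass (median 0.02, 28.6% called). The 4 that rose were all tetraspanins, membrane proteins that organise integrins at the surface. Cd9 averaged 598 ± 42.6 CPM in KCl and 413 ± 18.3 CPM in control (log2 fold change 0.53 ± 0.07, adjusted p = 0.0055). Tspan4 averaged 27.4 ± 6.98 CPM in KCl and 12.9 ± 2.77 CPM in control (log2 fold change 1.09 ± 0.24, adjusted p = 0.0216), a call lost under 7 of 16 alternatives. Cd151 had a log2 fold change of 0.52 ± 0.10 (adjusted p = 0.0154), a call lost under 2 of 16, also without control 4 alone. Cd82 had one of 0.26 ± 0.06 (adjusted p = 0.0215), a call lost under 8 of 16. Cd81, a tetraspanin that did not pass and was named after its values were seen, had a log2 fold change of -0.33 ± 0.11 (adjusted p = 0.0839).

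Of 7 tested genes of latent TGF-beta, the cargo of Itgav receptors, 1 fell, none rose and 6 did not pass (median -0.26, 14.3% called). Tgfb1 averaged 410.0 ± 10.9 CPM in KCl and 473 ± 15.6 CPM in control (log2 fold change -0.21 ± 0.05, adjusted p = 0.0305), a call lost under 8 of 16 alternatives. Of 8 tested selectins and rolling receptors, which slow leukocytes before integrins hold them, 1 rose and 7 did not pass (median 0.08, 12.5% called). Podxl, a sialomucin, averaged 1.498 ± 0.17 CPM in KCl and 0.57 ± 0.08 CPM in control (log2 fold change 1.40 ± 0.20, adjusted p = 0.00697). Selplg, which encodes the mucin PSGL-1, had a log2 fold change of 0.11 ± 0.12 (adjusted p = 0.607). Without replicate 4, edgeR called none of the 22 genes that passed in these 7 lists, and 18 of them had an unadjusted p under 0.05. All 22 log2 fold changes kept their sign there and moved by at most 0.10. These genes were picked by a fit that holds the same libraries, so neither count is a separate check of the calls.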

How the data were processed

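Whole-number read counts and FPKM values per gene and library were deposited by the authors in 1 table of 19162 rows. Per the submitters' processing notes, the tools were HISAT2 2.0.4, StringTie 1.3.3b and edgeR, on mouse build mm10. How reads were counted, and whether by strand, is not given in the sources used here. Reads of overlapping or antisense genes can therefore not be separated.

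Samples were grouped by their titles and treatment labels. Testing of the deposited counts used edgeR 4.0.16 (R 4.3.3): filterByExpr (minimum count 10, minimum total 15), TMM scaling and the quasi-likelihood test with robust fitting, 2-sided. Benjamini-Hochberg adjustment ran over the 13326 genes kept, at a threshold of 0.05. CPM values are TMM-scaled, and log2 fold changes are KCl minus control. The deposited FPKM values were used for levels between genes, and for ratios and shares within a library, which were compared by exact permutation tests, 2-sided. The test was checked on simulated counts drawn independently for each library. The deposited libraries are not independent, so that check does not cover the p-values given here.

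The members and gene lists were chosen with earlier results of these data known. By rule, all members, every other tested integrin subunit, and up to 4 genes with the smallest p of each related list could be named. Others are said to have been chosen after their values were seen. Marker lists are given by counts and summed levels only. Values of 1 listed gene are not reported here. Locations and transcripts are from GENCODE M21 and promoters from RefSeq.

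The alternatives tried were scaling by RLE, by the upper quartile or by library size, a mean CPM filter of 5 or no filter, DESeq2 1.42.0, limma-voom (limma 3.58.1), the replicate number as a block, a batch term for replicate 4, each library left out, both libraries of replicate 4 left out, and for ratios a pseudocount of 0.1 FPKM or CPM plus 0.5. Adding Gm49368 to Itgam, and the shares among alpha chains, were chosen after seeing the data.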

Additional observations from a re-analysis of the deposited data

How the results depend on the processing

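The count of integrin rows called was 3 under every scaling, filter and tool and with the replicate block, 2 with a batch term for replicate 4, 2 to 3 with 1 library left out, and 0 without replicate 4. Over all genes, the count of 3057 became 1678 with the replicate block, 1573 with the batch term, 1439 to 2851 with 1 library left out (1439 without control 4, 1505 without KCl 4) and 62 without replicate 4. The 22 calls in the related lists became 14 with the replicate block, 10 with the batch term, 8 to 26 with 1 library left out (8 without control 4, 10 without KCl 4, 12 without KCl 1) and 0 without replicate 4. The cause was not tested. Fewer libraries were fitted where some were left out. Deviations from the group means correlated at 0.02 for replicate 1 and -0.12 for replicate 2. Those means include KCl 4 and control 4, whose deviations mirror each other, so these values cannot show whether libraries are paired by number. For replicate 4 the correlation was -0.99, which restates that the mean of this pair nearly equals that of the other libraries. Upper-quartile scaling gave 1422 higher and 1735 lower genes, against 1655 and 1402 with TMM, and a median of -0.05.

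Signs changed for 4 values that passed no test. The Itgb7/Itgb1 difference was 0.11 without KCl 2, 0.01 without KCl 4, 0.02 without control 4 and 0.07 without replicate 4, with a leave-one-out range of -0.23 to 0.11. The Itgb2 fold change was -0.01 under upper-quartile scaling and -0.06 to 0.16 with libraries left out (-0.04 without KCl 2, -0.06 without control 1). That of Itgb7 was -0.34 to 0.04 with libraries left out (0.00 without KCl 2, 0.04 without replicate 4). That of Itga5 was -0.04 under upper-quartile scaling, -0.01 with library size only, -0.01 with no filter, and -0.08 to 0.10 with libraries left out (-0.07 without KCl 2, -0.08 without control 1). With 1 library left out, the difference stayed at -0.49 to -0.33 for Itgam/Itgal, 0.33 to 0.47 for Itgb2l/Itgb2, 0.11 to 0.63 for Itgav/Itga5 and 4.14 to 5.12 percentage points for the Itgal share. The members had 284 to 28265 counts per library, while the calls of Itgb8, Itga2, Skap1 and Podxl rest on 5 to 64.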
